A study of Homo sapiens with 6 samples.

Results

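Collagens are the main structural proteins of the extracellular matrix. Each chain carries a long run of glycine-rich repeats, and 3 chains wind into a helix that is secreted and then built into fibrils, networks or filaments. Epithelial cells, the cell type of the mammary duct and of most breast cancers, rest on a basement membrane whose scaffold is type IV collagen, whereas the fibrillar collagens of the surrounding stroma are made mostly by fibroblasts. The members described here are the non-control probe sets whose gene symbol in the authors' table has the form COL, number, A, number, without COL17A1. The rule took in 44 of the 33297 probe sets in the table. One of the 3 probe sets of COL11A2 was empty on every array, which left 43 tested probe sets for 42 genes.

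The arrays came from MDA-468.shp53, a derivative of the human breast cancer line MDA-MB-468, an established line with mutant p53. Its name points to a short hairpin RNA against p53. All cells were grown in 3-dimensional culture for 8 days. The control cells (-DOX) received no doxycycline and the treated cells (+DOX) did, doxycycline being the drug commonly used to switch on such hairpins. Each group had 3 arrays, 1 from each of 3 independent experiments, and both groups carry the hairpin construct. Hairpin-free cells given the drug were not analysed here, so effects of the hairpin and of the drug cannot be told apart. The labels used here do not say whether the line is a single clone. Values are log2 units from the authors' Robust Multichip Average (RMA), and a change is +DOX minus -DOX on that scale. Arrays correlated at 0.991 to 0.997 within a group and at 0.983 to 0.991 between groups over the tested probe sets.

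No collagen gene changed past the threshold of an adjusted p of 0.05 when doxycycline was added (limma with the experiment as a term, Benjamini-Hochberg adjustment over 28026 probe sets). The counts were 0 of 43 higher and 0 of 43 lower, beside 12.8% of all tested probe sets called, 6.14% higher and 6.63% lower. At an unadjusted p under 0.05, limma found 2 collagen probe sets, 4.65% of them, beside 24.5% of all tested. The methods' t-test, which is paired over the experiments, found 1 of 43 at that level beside 15.9% of all tested. It found 0 of 43 at its 1% level, beside 4.16% of all tested. After adjustment it found 0 of 43, but also 0 of all 28026 tested. The changes ran from -0.27 for COL9A2 to 0.19 for COL15A1, with a median of -0.017 beside -0.012 over all tested probe sets. The median size of a change, whatever its sign, was 0.056 for the collagens and 0.101 for all. Since RNA came from bulk cultures, fewer cells of a type and less RNA per cell cannot be told apart in any of these values.

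The standard errors of the collagen changes lay between 0.082 and 0.14 (n = 3 pairs of arrays), with a median of 0.099 beside 0.092 over all probe sets. Each of the 43 separate 95% intervals ended short of a 1.5-fold change in either direction. The widest reach was a fall of 1.44-fold for COL9A2 and a rise of 1.32-fold for COL15A1. Over all tested probe sets, 85.1% had an interval inside the same limits. The intervals were wider with the methods' t-test, where 27 of 43 lay inside, without experiment 1, where 40 did, and without experiment 2, where 42 did. Of the collagen probe sets, 19 had a mean value at or above 7.50, the median over all tested probe sets, and 24 lay below it. None of these 19 was called, beside 21.5% of all probe sets above that value, and none of the 24, beside 4.03% of those below it. Dim array signals understate fold changes, and the files used here hold no detection call, so a flat value does not show whether a transcript was present.

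**Figure D1:**
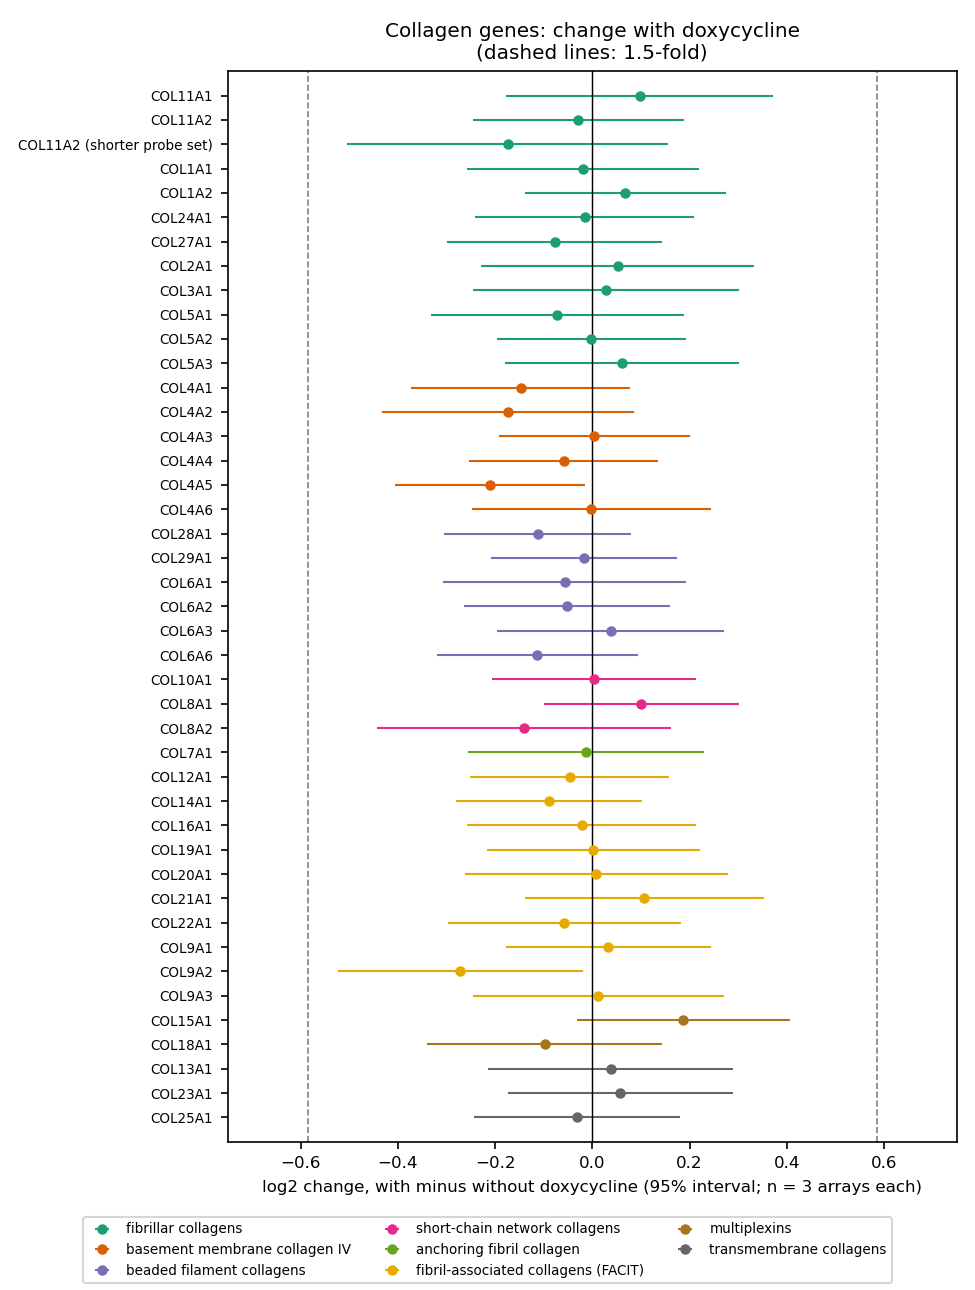
Change in each of the 43 collagen probe sets with doxycycline, in log2 units (points, with 95% intervals from limma, n = 3 arrays in each group), coloured by collagen class, with dashed lines at 1.5-fold. The points lie between -0.27 and 0.19 and no interval reaches a dashed line.

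None of the members met the size of 0.3 that had been set for a full account of an uncalled gene, so the genes described array by array below were chosen after their values were seen. The fibrillar collagens, which form the cross-banded fibres of connective tissue, comprised 11 genes with changes between -0.078 (COL27A1) and 0.098 (COL11A1) and a median of -0.0017. COL1A1, one of the chains of type I collagen, measured 8.72, 8.77 and 8.96 without doxycycline in experiments 1, 2 and 3 and 8.92, 8.71 and 8.76 with it. The groups overlapped, and the change was -0.02 (SE 0.102, 95% interval -0.26 to 0.22, limma adjusted p = 0.963). COL1A2, its partner chain, changed by 0.07 (interval -0.14 to 0.27). COL3A1, the chain of type III collagen, went from 7.30, 7.37 and 7.70 to 7.54, 7.52 and 7.40, a change of 0.03 (interval -0.25 to 0.30). It was thus higher in 2 experiments and lower in experiment 3.

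Type V and type XI collagens sit inside larger fibrils and set their width. COL5A1 (-0.07), COL5A2 (-0.0017), COL5A3 (0.06), COL11A1 (0.10) and COL11A2 (-0.03) were all within their errors, with adjusted p between 0.746 and 0.995. A second probe set of COL11A2, with 8 probes against 73 on the main one and placed on another haplotype sequence of chromosome 6, gave -0.17 (SE 0.14, adjusted p = 0.576). The cartilage collagen COL2A1 changed by 0.05, and the minor fibrillar chains COL24A1 and COL27A1 by -0.02 and -0.08.

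Type IV collagen is the network of the basement membrane, and its chain genes lie as head-to-head pairs. In the coordinates of the file, which match NCBI build 36, COL4A1 (chr13:109599311-109757505, minus strand) and COL4A2 (chr13:109757632-109963375, plus strand) have 126 bases between them. COL4A3 and COL4A4 on chromosome 2 have 5, and COL4A5 and COL4A6 on chromosome X have 426. Printed below are the stretch between the starts of COL4A1 and COL4A2 and the 250 bases before the start of COL4A5. These genes had the largest changes of the type IV chains, though none passed, and were chosen after their values were seen. Both stretches come from RefSeq on build GRCh38.p14, as chr13:110307158-110307283 and chrX:108439588-108439837, both on the plus strand and 5′ to 3′. Capitals mark a GC box (GGGCGG, or CCGCCC on the other strand) or a CCAAT box (CCAAT, or ATTGG on the other strand).
COL4A1 to COL4A2: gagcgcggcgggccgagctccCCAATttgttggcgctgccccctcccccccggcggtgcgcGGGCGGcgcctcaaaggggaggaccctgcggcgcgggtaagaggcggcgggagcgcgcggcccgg
COL4A5: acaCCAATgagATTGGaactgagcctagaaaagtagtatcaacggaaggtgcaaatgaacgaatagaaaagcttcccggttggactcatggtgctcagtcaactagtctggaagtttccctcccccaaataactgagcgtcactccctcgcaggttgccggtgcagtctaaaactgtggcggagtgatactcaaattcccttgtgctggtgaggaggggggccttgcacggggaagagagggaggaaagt
The first stretch is 80.2% G and C and holds 1 GC box and 1 CCAAT box. The second is 51.2% G and C, with 2 CCAAT boxes and no GC box. Neither holds TATAAA on either strand.

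COL4A1 and COL4A2, the chains of the most widespread type IV collagen, were close to level in experiments 1 and 2 and lower with doxycycline in experiment 3. COL4A1 measured 6.93, 6.97 and 7.03 without doxycycline and 6.93, 6.88 and 6.68 with it. COL4A2 measured 7.80, 7.68 and 7.91 without and 7.76, 7.67 and 7.44 with it. The 2 genes differed within experiments by -0.0065 and -0.043 in the first, -0.090 and -0.011 in the second, and -0.35 and -0.47 in the third. Their mean changes, -0.15 (interval -0.37 to 0.08) and -0.17 (interval -0.43 to 0.09), did not pass (adjusted p = 0.450 and 0.435 in limma).

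COL4A5, a chain of the type IV network that is mutated in Alport syndrome, was lower with doxycycline in all 3 experiments. It measured 7.71, 7.45 and 7.46 without doxycycline and 7.58, 7.16 and 7.25 with it. Experiment 1 was high in both groups, so the groups overlapped although each pair fell on the same side. The change was -0.21 (SE 0.084, interval -0.41 to -0.01), with an unadjusted p of 0.0386 in limma and an adjusted p of 0.171. COL4A6, which starts on the opposite strand 379 bases away in GRCh38.p14, measured 6.46, 6.41 and 6.79 without and 6.56, 6.57 and 6.52 with doxycycline. Its change was -0.0020 (interval -0.25 to 0.24), and the difference from COL4A5 was not tested. COL4A3 (0.0037) and COL4A4 (-0.059) had adjusted p of 0.992 and 0.798. COL4A1, COL4A2, COL4A4 and COL4A5 were lower in all 3 experiments, as were COL6A6, COL14A1 and COL28A1. These 7 are 16.3% of the 43 collagen probe sets, beside 23.0% of all tested.

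**Figure D2:**
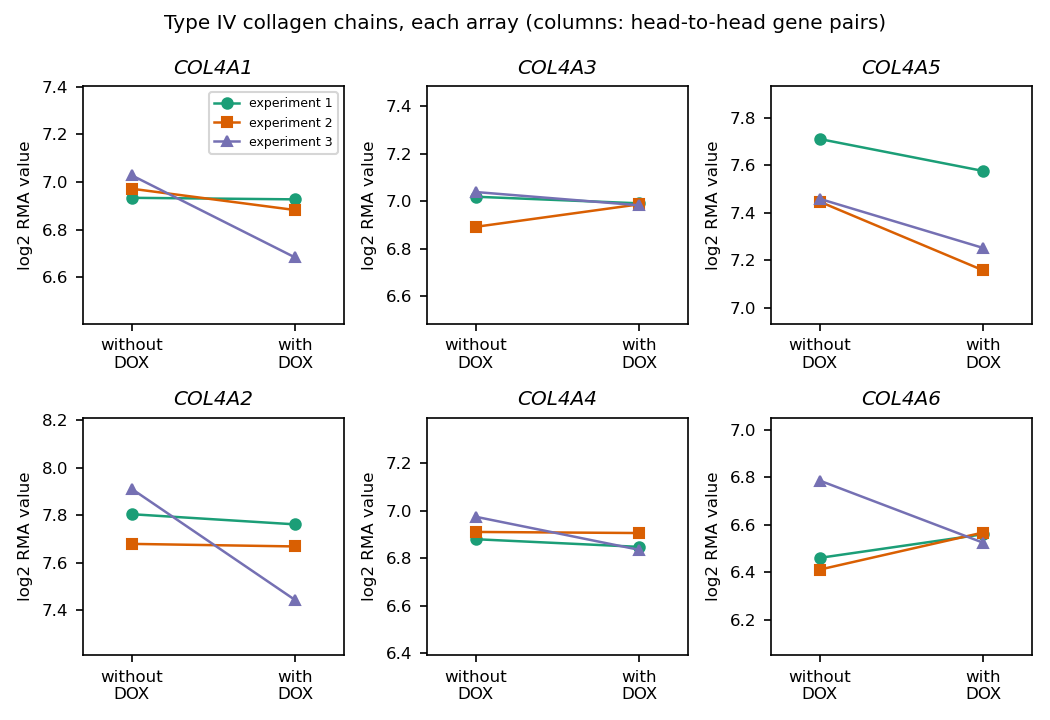
log2 RMA value of the 6 type IV collagen chains on each array without and with doxycycline, joined within each of 3 experiments, each axis covering 1 log2 unit and each column a head-to-head pair. COL4A1 and COL4A2 drop in experiment 3 (by 0.35 and 0.47), COL4A5 drops in all 3 experiments, and the differences of COL4A3, COL4A4 and COL4A6 lie between -0.26 and 0.16.

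Fibril-associated collagens bind the surface of fibrils through interrupted helices. Of these 10 genes, COL9A2, a chain of the cartilage collagen IX (chr1:40538746-40555647 in build 36, minus strand), had the largest change of all members. It measured 8.37, 8.49 and 8.52 without doxycycline and 8.37, 8.12 and 8.07 with it. Experiment 1 thus showed no difference, and the other two showed falls of 0.36 and 0.45. The mean change of -0.27 (SE 0.11, interval -0.52 to -0.02) had an unadjusted p of 0.0380 in limma and an adjusted p of 0.169. Of the remaining chains of collagen IX, COL9A1 was at 0.03 and COL9A3 at 0.01. COL12A1 (-0.05), COL14A1 (-0.09), COL16A1 (-0.02), COL19A1 (0.0025), COL20A1 (0.0086), COL21A1 (0.11) and COL22A1 (-0.06) had adjusted p from 0.631 to 0.994. The 250 bases before the start of COL9A2 (RefSeq, GRCh38.p14, chr1:40317287-40317536, minus strand, 5′ to 3′) are shown as those of the gene with the largest change, with capitals as above.
COL9A2: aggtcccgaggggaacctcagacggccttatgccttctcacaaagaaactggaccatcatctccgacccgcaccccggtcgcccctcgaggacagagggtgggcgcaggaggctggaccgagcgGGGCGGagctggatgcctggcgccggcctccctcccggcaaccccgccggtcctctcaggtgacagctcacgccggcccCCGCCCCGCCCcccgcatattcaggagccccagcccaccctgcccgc
This stretch is 71.6% G and C and holds 3 GC boxes, of which 2 share a base, and no CCAAT box. Promoter sequences were matched for 30 of the 42 genes, some with several starts, which gave 42 windows of 250 bases before a start. A GC box was found in 57.1% of these windows beside 42.6% of 35116 RefSeq windows, CCAAT in 26.2% beside 32.0%, and TATAAA in 16.7% beside 10.7%. These matches describe letters and not binding.

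Multiplexins are basement membrane collagens with many breaks in the helix. COL15A1 had the largest rise of the members, from 7.11, 7.20 and 7.31 to 7.45, 7.39 and 7.33, so the groups did not overlap. Its differences were 0.34, 0.20 and 0.02 in experiments 1, 2 and 3, and the mean of 0.19 (interval -0.03 to 0.41) did not pass (adjusted p = 0.287). COL18A1, whose end is cut to release endostatin, went from 9.14, 9.21 and 9.24 to 9.29, 9.01 and 8.997, higher in experiment 1 and lower in the others, with a change of -0.10 (interval -0.34 to 0.14). COL7A1, the anchoring fibril collagen that ties the basement membrane to the stroma, measured 7.92, 7.97 and 8.15 without and 8.04, 8.07 and 7.88 with doxycycline. Its change was -0.01 (interval -0.26 to 0.23).

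The beaded filament collagens of type VI form thin filaments around cells. COL6A1 (-0.06), COL6A2 (-0.05) and COL6A3 (0.04) did not pass, nor did COL29A1 (-0.02), an older name of COL6A5, and COL6A6 (-0.11, adjusted p = 0.555). COL28A1, a related chain, measured 6.71, 6.75 and 6.73 without and 6.60, 6.68 and 6.56 with doxycycline. Its groups did not overlap, but the change of -0.11 (interval -0.30 to 0.08) did not pass. Groups failed to overlap for 3 collagen probe sets in all (COL4A1, COL15A1 and COL28A1), beside 24.9% of all tested probe sets. The short-chain network collagens COL8A1 (0.10), COL8A2 (-0.14) and COL10A1 (0.0040) and the transmembrane collagens COL13A1 (0.04), COL23A1 (0.06) and COL25A1 (-0.03) had adjusted p of 0.597 to 0.991.

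The collagen probe sets varied with the experiment. In experiment 1, 32 of 43 were higher with doxycycline (74.4%, beside 52.5% of all tested), with a median difference of 0.10 beside 0.012. In experiment 2, 28 were higher (65.1%, beside 53.9%), with a median of 0.06 beside 0.021. In experiment 3, 41 of 43 were lower (95.3%, beside 60.9%), with a median of -0.21 beside -0.063. Falls in experiment 3 were not limited to collagens. The median difference there was -0.20 in the propeptide and cross-linking list and in the receptor list described below, and -0.15 among other genes with collagen-like helices. It was -0.17, -0.15 and -0.19 in markers of fibroblasts, endothelial cells and leukocytes, and -0.24 in epithelial markers. The epithelial markers fell more in experiment 2, with a median of -0.44, beside -0.05 in experiment 1. The fibril-binding proteoglycans were at -0.01 and the folding and secretion list at 0.25. The array without doxycycline of experiment 3 held the highest of the 6 values for 32 of the 43 collagen probe sets, beside 25.8% of all tested, and the lowest for none. Medians over all tested probe sets were 7.51 without and 7.50 with doxycycline in experiment 1, and 7.48 and 7.48 in experiment 2. In experiment 3 they were 7.56 and 7.45, the highest and the lowest of the 6 arrays. The part of this gap in the collagen falls was not tested. The array with doxycycline of that experiment held the lowest value for 16 (37.2%, beside 18.5% of all), and the array without doxycycline of experiment 1 for 14 (32.6%, beside 21.4%). All 19 at or above the overall median were lower in experiment 3, with a median of -0.26, beside a median of -0.010 and 51.3% lower over all probe sets of that range. Of the 24 below the overall median, 22 were lower (91.7%, beside 70.5%), with a median of -0.16 beside -0.091. Without experiment 3, the median collagen change was 0.07, beside 0.018 over all tested, with 9 of 43 below 0. Of the collagens 0 were called, at a lowest adjusted p of 0.204, beside 1355 of all tested. Without experiment 1 the median collagen change was -0.07, beside -0.026 over all tested, with 35 below 0. Again 0 collagens were called, beside 2853 of all tested. No array was repeated within an experiment, so a difference between experiments could not be tested, and its source was not tested.

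**Figure D3:**
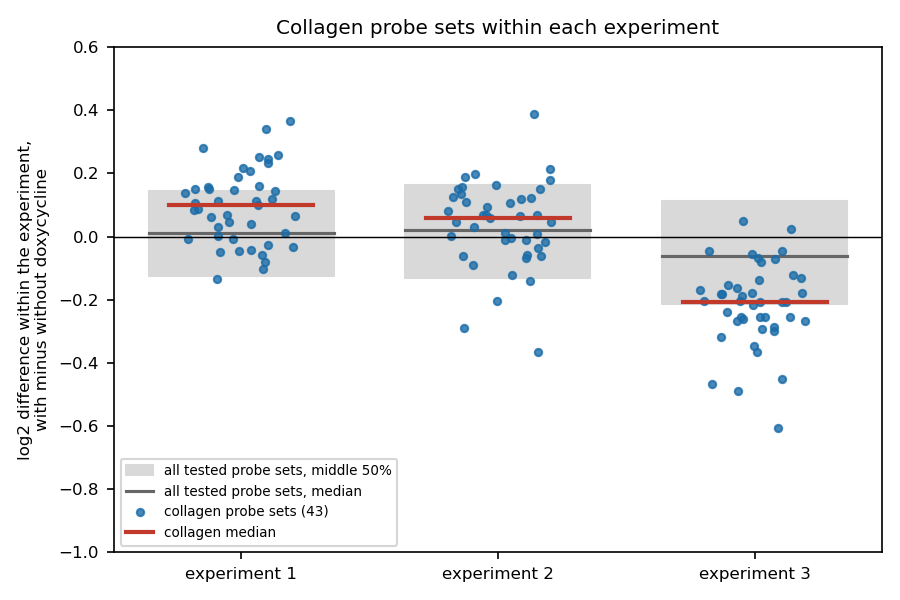
log2 difference of each of the 43 collagen probe sets within each experiment, with minus without doxycycline (points, with the collagen median as a red bar), over the middle 50% and the median of all tested probe sets (grey). The collagen median is 0.10, 0.06 and -0.21 in experiments 1, 2 and 3, and 41 of 43 points lie below 0 in experiment 3.

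Genes that modify, export, bind or degrade collagen were examined in 7 lists with 86 genes, of which 85 were measured. Of these, 12 passed the threshold, 5 higher and 7 lower. That share of 14.1% is close to the 12.8% of all tested probe sets. After adjustment, the methods' t-test called none of the genes described below, and none of all tested probe sets. At its unadjusted 1% level it called 4.16% of all tested probe sets, but none of the 12 genes that passed in limma. Their p in that test ran from 0.0110 (P3H2) to 0.117 (P4HA1). The partner genes it did call at that level, P3H1 and KLHL12, had not passed in limma.

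The list with the most calls was that of the enzymes that hydroxylate or glycosylate collagen chains, where 2 of 15 genes rose and 3 fell (33.3% called, median -0.08). Of these 15, 11 had a mean at or above the overall median, where 21.5% of all tested probe sets were called. P4HA1 and P4HA2 encode alternative catalytic subunits of prolyl 4-hydroxylase, whose products stabilise the helix, and they went in opposite directions. P4HA2 (chr5:131555430-131591476 in build 36) rose from 9.29, 8.89 and 8.80 to 9.90, 9.81 and 9.67, without overlap, by 0.80 (SE 0.096, 1.74-fold, limma adjusted p = 0.00269). P4HA1 (chr10:74435551-74526630), the fifth call of this list and named beyond the naming rule, fell from 8.05, 7.71 and 7.14 to 6.81, 6.66 and 6.92, by 0.84 (SE 0.18, 1.79-fold, adjusted p = 0.0238). It fell by 1.25 in experiment 1, by 1.05 in experiment 2 and by 0.22 in experiment 3. It did not pass in a model that ignored the experiments (adjusted p = 0.0527), with controls tested too (0.0671) and without experiment 1 or 2 (0.0967 and 0.0746). P4HB, the shared other subunit, changed by -0.13 (adjusted p = 0.425) and, on a second probe set, by -0.15 (adjusted p = 0.391). The third catalytic subunit gene P4HA3 changed by -0.08.

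P3H2, a prolyl 3-hydroxylase with a known preference for type IV collagen, rose from 8.12, 7.94 and 7.87 to 8.80, 8.47 and 8.63, by 0.66 (SE 0.088, adjusted p = 0.00417). The lysyl hydroxylases PLOD1 and PLOD2, whose products are used in cross-links, fell. PLOD2 went from 10.91, 11.01 and 10.87 to 10.35, 10.49 and 10.51, by 0.48 (SE 0.087, adjusted p = 0.0122), and missed the threshold without experiment 1 or 2 (0.0560 and 0.0645). PLOD1 fell by 0.43 (SE 0.086, adjusted p = 0.0177), a call lost without the experiment term (0.100) and without experiment 2 or 3 (0.113 and 0.0693). P3H1, the prolyl 3-hydroxylase best known for acting on type I collagen, was at -0.30 and did not pass (adjusted p = 0.0531). It passed without the experiment term (0.0431) and among brighter probe sets alone (0.0284). P3H1 also passed the methods' t-test at its 1% level (unadjusted p = 0.00678).

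Among collagen receptors 1 of 9 rose and 1 fell. DDR2, a receptor tyrosine kinase activated by fibrillar collagens, rose on both of its probe sets. The one that stands for the gene (chr1:160868852-161016879 in build 36) went from 8.13, 7.53 and 7.73 to 8.67, 8.82 and 8.73, by 0.94 (SE 0.14, 1.92-fold, adjusted p = 0.00602), and missed the threshold without experiment 3 (0.0554). The other went from 6.12, 6.10 and 6.06 to 6.98, 7.20 and 7.39, by 1.10 (SE 0.11, adjusted p = 0.00133). DDR1, the receptor kinase of epithelial cells, was at -0.21 (adjusted p = 0.292) on its brighter probe set, placed on another haplotype sequence of chromosome 6. Its other probe set was at -0.27 (interval -0.51 to -0.03, adjusted p = 0.158). ITGA2, the integrin chain that binds collagen together with ITGB1, fell from 8.00, 7.72 and 7.72 to 7.42, 7.47 and 7.38, by 0.39 (SE 0.095, adjusted p = 0.0360). That call was lost with equal array medians (0.0593), with controls tested too (0.0741) and with any experiment left out (0.0675 to 0.160).

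Of 11 genes of folding and secretion 1 rose and none fell. A second gene, MIA3 at 0.29 (adjusted p = 0.0679), passed as well without the experiment term (0.04997) and among brighter probe sets alone (0.0359). KLHL12, at 0.20 (limma adjusted p = 0.185), passed the methods' t-test at its 1% level (unadjusted p = 0.00274). The gene that rose was MIA2, which helps to load collagen into transport carriers, on the probe set listed under its older name CTAGE5. It went from 7.55, 7.53 and 7.08 to 8.31, 8.63 and 8.64, by 1.14 (SE 0.15, adjusted p = 0.00353). A second probe set of MIA2, over the upstream part of the locus, was at -0.06 (adjusted p = 0.809). That probe set was dim, at 4.40, 4.48 and 4.36 without doxycycline and 4.42, 4.30 and 4.34 with it. These values lie below the overall median of 7.50, so its flat value does not show a disagreement within the gene. SERPINH1, the collagen chaperone HSP47, was at 0.03 (interval -0.17 to 0.24). Of 15 genes that trim propeptides or cross-link chains, PCOLCE, an enhancer of propeptide removal, fell by 0.46 (SE 0.093, adjusted p = 0.0191), a call lost without experiment 2 or 3 (0.0598 and 0.0959). No other gene of that list passed over all tested probe sets. LOXL2, a lysyl oxidase, was at -0.39 (adjusted p = 0.111), with 9.29 on the array without doxycycline of experiment 1 and 8.43 to 8.72 on the other arrays. LOXL2 passed among brighter probe sets alone (0.0462).

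Of 10 genes of collagen breakdown, FAP, a serine protease of activated fibroblasts, fell by 0.36 (SE 0.086, adjusted p = 0.0355). FAP was dim, at 5.35, 5.46 and 5.40 without doxycycline and 5.09, 5.11 and 4.94 with it, below the overall median of 7.50. Its call was lost with controls tested too (0.0684) and with any experiment left out (0.0694 to 0.151). The collagenases MMP1, MMP8 and MMP13 did not pass. None of 8 fibril-binding proteoglycans passed over all tested probe sets. The gene with the smallest p, PRELP, was at -0.35 (adjusted p = 0.0595) and passed among brighter probe sets alone (0.0262). FMOD followed at -0.10. Of 17 other genes with collagen-like helices, SCARA3, a scavenger receptor, fell from 8.58, 9.09 and 9.06 to 8.12, 8.19 and 8.15, by 0.76 (SE 0.11, adjusted p = 0.00593), which missed the threshold without experiment 3 (0.0507). COLEC10, a collectin that was also dim, rose from 6.04, 5.68 and 5.78 to 6.36, 6.28 and 6.16, by 0.43 (SE 0.092, adjusted p = 0.0217). COLEC10 missed the threshold without the experiment term (0.0541), with controls tested too (0.0512) and without experiment 2 or 3 (0.137 and 0.0829).

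**Figure D4:**
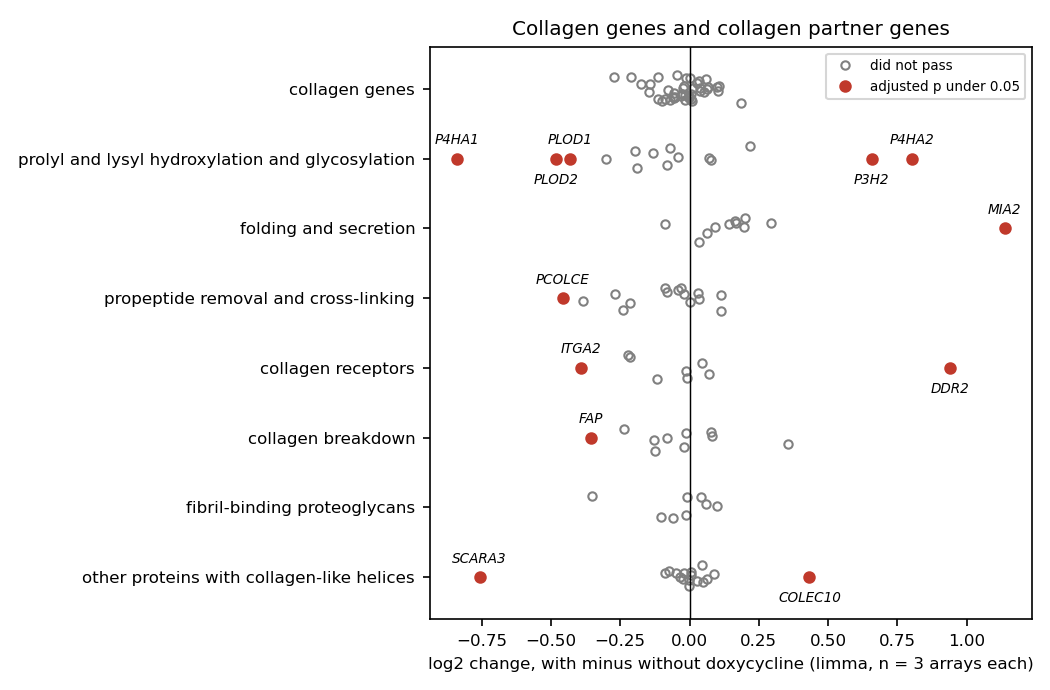
log2 change with doxycycline of the 42 collagen genes and of 85 partner genes in 7 lists, with filled points for an adjusted p under 0.05 in limma (n = 3 arrays in each group). No collagen gene is filled, whereas 12 partner genes are, with P4HA1 at -0.84 and P4HA2 at 0.80 at opposite ends of the hydroxylation row.

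The labelled cell type was set against marker genes. All 6 epithelial markers (EPCAM, CDH1 and keratins) had mean values of 11.0 to 13.0, above the overall median of 7.50. None of 8 fibroblast markers and none of 4 endothelial markers reached that median, and fibroblast markers ran from 4.12 (LUM) to 6.97. Of 4 leukocyte markers 1 did, CD68. Of the fibroblast markers, FAP alone passed, with the fall given above, and their median change was -0.0079. All 6 epithelial markers had changes below 0, from -0.63 to -0.03 with a median of -0.23. KRT8 alone of them passed and fell by 0.63 (SE 0.089, adjusted p = 0.00498). KRT19 was at -0.37 (adjusted p = 0.109) and KRT7 at -0.36 (adjusted p = 0.0788). The part of these shifts in the collagen values was not tested.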

How the data were processed

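RNA of 6 cultures was measured on Affymetrix gene-level arrays. Per the labels' protocols, total RNA was column-purified, amplified with a whole-transcript kit and labelled with biotin. The authors deposited log2 values from the Robust Multichip Average, named with R 2.11.1 in the submitters' processing notes. A deposited workbook holds the same log2 values (largest difference 5.0e-09) and gave gene symbols, control marks and coordinates. Precision is limited by the number of arrays, which have no read depth. Array medians ran from 7.45 (with doxycycline, experiment 3) to 7.56 (without doxycycline, experiment 3).

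Of 33297 probe sets, 976 were empty and 4428 were controls (4295 with values), which left 28026 for the test. Groups were compared in limma 3.58.1 under R 4.3.3 (lmFit, eBayes), with the experiment as a block and Benjamini-Hochberg adjustment at 0.05. Pairing comes from the series' design text, where the experiments are called independent and the test is a paired one. Deviations of paired arrays from their group means correlated at 0.482, 0.165 and 0.0993. With 3 pairs, the smallest two-sided p of an exact sign-flip test is 0.25. The fit was also run on simulated data, with results not given here. For a gene with several probe sets, the one with the highest mean stood for it. Older symbols were updated through the RefSeq table of GRCh38.p14. The rule for named genes asked for array values of members that passed or that reached a change of 0.3 with 1 sign, and for up to 4 called genes of each partner list, or the 2 with the smallest p where none was called. Members and lists were chosen with earlier results of these data known. Alternatives were no block, brighter probe sets alone, equal array medians, a trended robust prior, controls included, the methods' t-test and each experiment left out. The target of the hairpin is not reported here.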

Additional observations from a re-analysis of the deposited data

How the results depend on the processing

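No collagen probe set was called, in either direction, under any of the 10 alternative settings, with a lowest adjusted p of 0.0651 without experiment 1. Without the replicate block (the experiment term), 1109 of all probe sets rose and 1300 fell, and 0 collagens passed. Rises numbered 1102 with controls included. The methods' t-test called 0 rises and 0 falls among all probe sets after adjustment, so its lack of collagen calls there says nothing about collagens. At its unadjusted 1% level it called 468 rises and 697 falls. With some experiment left out, rises ranged from 456 to 1416 and falls from 899 to 1437. Equal array medians raised every change by 0.038, which turned the sign of COL11A2 (0.0094), COL1A1 (0.019), COL24A1 (0.022), COL5A2 (0.036), COL4A6 (0.036), COL29A1 (0.022), COL7A1 (0.024), COL16A1 (0.016) and COL25A1 (0.0072). None of these was called either way. Leaving out an experiment turned the sign of 31 uncalled collagen changes, whose values then ranged as follows, the cause of the turns being not tested: COL11A1 -0.048 to 0.24, COL11A2 -0.074 to 0.061, COL11A2 (second probe set) -0.33 to 0.043, COL1A1 -0.13 to 0.073, COL24A1 -0.098 to 0.078, COL27A1 -0.15 to 0.012, COL2A1 -0.061 to 0.22, COL3A1 -0.074 to 0.19, COL5A1 -0.15 to 0.076, COL5A2 -0.025 to 0.038, COL5A3 -0.016 to 0.18, COL4A3 -0.042 to 0.033, COL4A6 -0.081 to 0.13, COL29A1 -0.040 to 0.0096, COL6A1 -0.15 to 0.075, COL6A2 -0.11 to 0.025, COL6A3 -0.038 to 0.15, COL10A1 -0.061 to 0.072, COL8A2 -0.31 to 0.033, COL7A1 -0.081 to 0.11, COL12A1 -0.093 to 0.019, COL16A1 -0.094 to 0.095, COL19A1 -0.049 to 0.094, COL20A1 -0.11 to 0.16, COL21A1 -0.022 to 0.18, COL22A1 -0.16 to 0.047, COL9A1 -0.0064 to 0.11, COL9A3 -0.11 to 0.15, COL13A1 -0.074 to 0.16, COL23A1 -0.0025 to 0.17, COL25A1 -0.11 to 0.030.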

Other observations

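COL17A1, a transmembrane collagen of hemidesmosomes that the rule left out, measured 7.45, 7.31 and 7.63 without doxycycline and 7.47, 7.51 and 7.30 with it (change -0.04, 95% interval -0.30 to 0.23, limma adjusted p = 0.927). COL26A1, listed under its older name EMID2 and so not reached by the rule, changed by 0.06 (interval -0.16 to 0.27, adjusted p = 0.833). Both were higher with doxycycline in experiments 1 and 2, and in experiment 3 they fell by 0.33 and by 0.11.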
